A study of Mus musculus with 12 samples.

Results

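Chemokines are small secreted proteins that direct the movement of leukocytes, and their receptors are membrane proteins that sense them. The genes described here are the mouse protein-coding genes whose symbol is Ccl, Cxcl, Ccr, Cxcr or Ackr followed by a number, together with *Cx3cl1*, *Cx3cr1*, *Xcl1* and *Xcr1*. The analysis covers 65 such gene entries of the 55421 in the count table, of which 58 lie on chromosomes and 7 are copies on unplaced scaffolds. Expression was measured by RNA sequencing in bone marrow cells from 12 mice aged 20 weeks, with 3 mice and 3 libraries in each of 4 groups. Control mice were naive C57BL/6J animals. Mice with hypertension were C57BL/6J animals given angiotensin II chronically, which the methods say came from an osmotic minipump. Mice with MI were C57BL/6J animals sampled 2 days after acute myocardial infarction by the labels, made by permanent coronary ligation according to the methods. The study's own text names a later day for these mice, and the day of the labels is used here. Atherosclerotic mice carried the Apoe(tm1Unc) knockout in every cell and, according to the methods, were fed a western-type diet, so that genotype and diet cannot be told apart in this group. No Cre or transgene was involved, and no group received a sham operation or a vehicle pump in the labels. The libraries carry replicate numbers 2, 3 and 4 within each group, and these numbers name the mice below.

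In the bone marrow, chemokine receptors decide which cells are held in place and which leave. *Cxcr2* and its ligands draw neutrophils out of the marrow, *Ccr2* and its ligands *Ccl2* and *Ccl7* let monocytes out, and *Cxcr4* keeps stem cells and granulocytes in. Classical receptors signal through inhibitory G proteins, whereas the atypical receptors (*Ackr1* to *Ackr4*) bind, carry or remove ligands without that signal. Endothelium is both a source of chemokines and a surface on which they are displayed.

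Of the 65 entries, 42 had enough counts to be tested, and these were 22 ligands and 20 receptors, 4 of the latter atypical. A further 6 exceeded 3 counts in some library but were too low to test (*Ccl17*, *Ccl24*, *Ccl28*, *Cxcl3*, *Cxcl15* and *Ccr1l1*). Another 5 had at most 3 counts in every library (*Ccl1*, *Ccl11*, *Ccl19*, *Cxcl17* and *Ccr4*), and 12 had no count at all (*Ccl20*, *Ccl21a*, *Ccl21b*, *Ccl26*, *Ccl27b* and the 7 scaffold copies of *Ccl19*, *Ccl21a*, *Ccl21b*, *Ccl21c* and *Ccl27*). The *Ccl21* and *Ccl27* copies are nearly identical to one another, and reads that map to several places were not counted, so a count of 0 for them is uncertain. Of the 42 tested genes, 33 exceeded 3 counts in every library. Others entered the test through the groups in which they had counts, *Cxcl13* and *Ccl22* among them, so counts over the 42 tested genes describe those genes only. Levels are given as CPM, the count per 1000000 counts of a library after scaling between libraries (TMM). On that scale 3 counts amounted to 0.116 to 0.176, and values below that range are at the limit of what the depth could show.

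Promoter sequence is shown first for the 3 ligands with the largest fitted differences in atherosclerosis, *Cxcl13*, *Ccl22* and *Ccl8*, and for *Cxcl1* and *Cxcl2*, neighbouring genes for neutrophil-attracting ligands whose levels lay far apart. Each is the 250 bases before the start site in RefSeq (GRCm38.p6, 5′ to 3′ on the plus strand, on which all 5 genes lie). The intervals are chr5:95956689-95956938 for *Cxcl13*, chr8:94745434-94745683 for *Ccl22*, chr11:82114935-82115184 for *Ccl8*, chr5:90890995-90891244 for *Cxcl1* and chr5:90903649-90903898 for *Cxcl2*. Capitals mark matches to the motifs listed after the sequences.

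Cxcl13: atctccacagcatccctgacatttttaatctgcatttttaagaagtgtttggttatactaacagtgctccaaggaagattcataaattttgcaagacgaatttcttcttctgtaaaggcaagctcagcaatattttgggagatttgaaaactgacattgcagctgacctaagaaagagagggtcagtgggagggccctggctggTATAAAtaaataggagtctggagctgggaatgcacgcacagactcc
Ccl22: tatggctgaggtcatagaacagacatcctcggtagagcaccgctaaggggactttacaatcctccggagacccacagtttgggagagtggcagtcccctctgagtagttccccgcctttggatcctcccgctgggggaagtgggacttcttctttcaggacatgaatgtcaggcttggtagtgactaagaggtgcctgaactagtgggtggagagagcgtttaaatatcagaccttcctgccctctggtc
Ccl8: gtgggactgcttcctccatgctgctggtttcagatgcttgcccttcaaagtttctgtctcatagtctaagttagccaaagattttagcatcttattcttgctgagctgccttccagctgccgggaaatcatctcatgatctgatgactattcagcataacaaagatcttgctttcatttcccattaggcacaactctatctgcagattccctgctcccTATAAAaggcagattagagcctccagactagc
Cxcl1: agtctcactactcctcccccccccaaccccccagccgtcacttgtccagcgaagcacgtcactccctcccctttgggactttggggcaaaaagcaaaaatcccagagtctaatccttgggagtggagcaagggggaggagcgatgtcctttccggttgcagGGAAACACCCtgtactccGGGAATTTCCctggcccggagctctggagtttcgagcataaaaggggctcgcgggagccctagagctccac
Cxcl2: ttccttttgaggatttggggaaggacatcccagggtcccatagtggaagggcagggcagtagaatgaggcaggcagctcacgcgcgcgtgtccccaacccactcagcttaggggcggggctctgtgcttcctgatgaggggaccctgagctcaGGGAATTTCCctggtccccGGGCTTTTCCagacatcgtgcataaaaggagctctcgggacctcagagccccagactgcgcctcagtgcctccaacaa

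Motifs were searched on both strands, and no match to one overlapped a match to another in these 5 sequences. The letters were GGG, any 2 bases and TTTCC for a kappaB element, TGANTCA for AP-1, GAAA, any 2 bases and GAAA for an interferon-stimulated response element, TTCNNNGAA for a STAT (GAS) element and TATAAA for a TATA box. *Cxcl1* and *Cxcl2* each held 2 kappaB matches, between 89 and 62 and between 97 and 69 bases before the start. *Cxcl13* and *Ccl8* each held a TATA box match, at 46 to 41 and 32 to 27 bases before the start. *Ccl22* held none of these letters. Among 32817 promoters of this length the kappaB letters were found in 1.41% and the TATA box letters in 12.4%. Of the 33 tested genes with a promoter in the RefSeq table, 4 held the kappaB letters (*Ccl9*, *Ccr3*, *Cxcl1* and *Cxcl2*) and 11 the TATA box letters. The AP-1 letters were found in 4 of the 33 and in 6.75% of all promoters, the interferon letters in 2 and in 2.97%, and the GAS letters in 2 and in 7.01%. A gene was counted if any of its promoters matched, whereas the percentages are per promoter, so they are unlike measures.

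Total counts per library ran from 17007088 to 25136936, and *Apoe* had between 7.28 and 14.8 CPM in the atherosclerotic mice against 450.5 to 1503 CPM in the other 9. The cells were sorted as TER-119-, CD41-, CD45-, CD31 high and SCA-1+ endothelial cells, but the levels of marker genes went against that label. All 22 endothelial marker genes had counts in every library, with a summed level of 188 to 331 CPM. *Cdh5* and *Pecam1*, junction proteins of endothelium, had medians of 3.03 and 20.3 CPM. The 13 neutrophil marker genes summed to 34296 to 99595 CPM, the 10 erythroid genes to 7394 to 24146 CPM, the 8 eosinophil genes to 6211 to 15334 CPM, the 7 monocyte genes to 885 to 2183 CPM and the 10 macrophage genes to 393 to 839 CPM. The values below are therefore those of a sorted fraction in which transcripts of blood-forming cells predominated, and in such a fraction fewer cells of a type and less RNA per cell cannot be told apart. MI replicate 2 stood apart in several measures, with the highest neutrophil and monocyte sums of the 12 libraries, 99595 and 2183 CPM.

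The chemokine system was read mostly through myeloid ligands and receptors. Levels of different genes are compared here as mean CPM per kilobase of exon over the 12 libraries. *Ccl6*, a ligand of *Ccr1* made by myeloid cells, stood first at 278 CPM per kilobase, ahead of *Ccl5* at 76.2. The atypical receptor *Ackr1*, at 53.8, and *Ccl2*, *Ccr1*, *Ccl3* and *Ccr2*, at 52.3, 51.7, 50.1 and 48.1, lay so close that their order was within the spread between libraries. *Cxcr2* followed at 39.5, *Ccl4* at 37.0, *Ccl9* at 21.4, *Cxcl2* at 16.5 and *Ccl7* at 10.3 CPM per kilobase. The other 30 tested genes lay between 8.50 for *Cx3cr1* and 0.0902 for *Ackr2*. *Cxcl2* and *Cxcl1*, with the 2 kappaB matches each shown above, differed widely, at 16.5 and 0.266 CPM per kilobase. The *Ackr1* value is uncertain, because 25.7% of its exon bases are shared with *Cadm3* on the same strand.

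**Figure D1:**
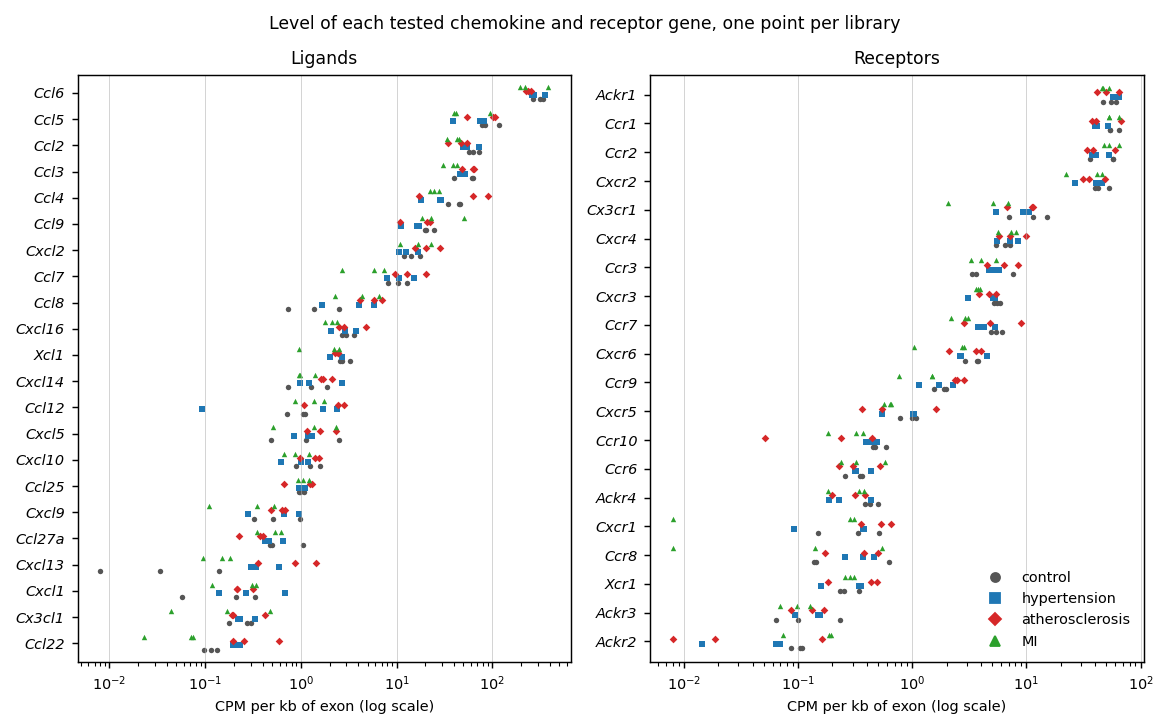
Level of the 22 tested ligand genes (left) and 20 tested receptor genes (right) as CPM per kilobase of exon on a log axis, 1 point per library, coloured and shaped by group, with values under 0.008 drawn at 0.008. *Ccl6* lies above every other gene at a mean of 278. In MI 14 of the 42 genes lie below every control and 0 above, where 4.59% and 4.27% of all genes do. Without MI replicate 2 these are 17 and 2, where 9.91% and 9.96% of all genes do. *Cxcl13* lies above every control in hypertension and atherosclerosis.

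Several of these genes sit in clusters. On chromosome 11 the 6 genes from *Ccl2* to *Ccl1* span 82035571 to 82305690 (GRCm38) and the 5 genes from *Ccl5* to *Ccl4* span 83525778 to 83664683. On chromosome 9, 7 receptor genes from *Ccr9* to *Ccr2* lie between 123678439 and 124113557. Neighbours did not share a level. *Ccl8* and *Ccl12* stood at 3.88 and 1.45 CPM per kilobase beside *Ccl2* at 52.3, and *Ccr3* at 5.20 beside *Ccr2* at 48.1.

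Summed over the 65 entries, the family came to 1772 ± 169 CPM in controls (SD over 3 mice, as for every SD below), 1570 ± 141 in hypertension, 1562 ± 151 in atherosclerosis and 1585 ± 226 in MI. The ranges of the 4 groups overlapped.

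None of the 42 genes passed an adjusted p under 0.05 in any comparison (edgeR quasi-likelihood test, adjusted over 15999 genes). Across all genes, the same rule called 0% in hypertension, 0.144% in atherosclerosis and 0% in MI against controls. The lowest adjusted p among the 42 was 0.951 in hypertension, 0.0968 in atherosclerosis (*Cxcl13*) and 1.00 in MI. In hypertension, 2 genes had an unadjusted p under 0.05, *Cxcl13* and *Ccl8*, where 3.71% of all genes did. In atherosclerosis there were 5, against 5.97% of all genes, with *Cxcl13*, *Ccl8* and *Ccl22* above controls and *Ccl2* and *Ccl27a* below. In MI there were 7, against 2.80% of all genes, with *Ccl8* above controls and *Ccl2*, *Ccl3*, *Ccl7*, *Ccr7*, *Cx3cr1* and *Cxcr3* below. DESeq2 gave the same counts of 2, 5 and 7 at an unadjusted p under 0.05, where 3.91%, 6.19% and 2.72% of all genes did. At an adjusted p it gave 0, 1 and 0, with 0%, 0.506% and 0.00625% of all genes. The counts at an unadjusted p moved with the filter on low counts. They were 0, 2 and 6 of 29 genes with at least 10 counts in every library, beside 3.98%, 5.85% and 2.54% of all genes. Without a filter they were 5, 10 and 16 of 53 genes, beside 4.39%, 5.91% and 3.17% of all genes. The 3 comparisons use the same 3 control libraries.

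In MI many of these genes lay below every control library. All 3 MI libraries lay below all 3 controls for 14 of the 42 genes, where 4.59% of all genes did so. These were the ligands *Ccl2*, *Ccl4*, *Ccl7*, *Ccl22*, *Cxcl16* and *Xcl1*, and the receptors *Ackr4*, *Ccr7*, *Ccr9*, *Ccr10*, *Cx3cr1*, *Cxcr3*, *Cxcr5* and *Cxcr6*. Of 13 lists of cell type markers, 2 also had a summed level below every control in all MI libraries. The 6 plasmacytoid dendritic cell genes summed to 44.7 to 66.1 CPM in MI and 88.3 to 91.0 in controls, and the 10 B cell genes to 223 to 494 CPM and 522 to 767 CPM, and their part in the count of 14 was not tested. No gene lay above every control in MI, where 4.27% of all genes did. Without MI replicate 2 the numbers were 17 below, where 9.91% of all genes lay, and 2 above (*Ccl8* and *Cxcl13*), where 9.96% did. The median log2 fold change of the 42 genes in MI was -0.43, beside 0.00 for all genes. In atherosclerosis 4 genes lay above every control (*Ccl8*, *Ccl22*, *Ccr9* and *Cxcl13*), where 5.06% of all genes did, and 5 lay below (*Ccl2*, *Ccl6*, *Ccl27a*, *Ccr10* and *Xcl1*), where 4.45% did. Scaled by library totals alone, *Ccl2*, *Ccl6* and *Ccr10* overlapped the controls there and *Cxcr3* lay below them. With that scaling 3 genes lay below, where 4.71% of all genes did. The 10 macrophage marker genes summed to 678 to 839 CPM in atherosclerosis and 418 to 489 CPM in controls. The 6 plasmacytoid dendritic cell genes summed to 97.0 to 130 CPM in atherosclerosis, also above the 88.3 to 91.0 of controls. The part of both lists in the atherosclerosis values was not tested. In hypertension 2 lay above (*Ccl22* and *Cxcl13*), where 9.02% of all genes did, and 4 below (*Ackr2*, *Ccl4*, *Ccl9* and *Ccr1*), where 7.81% did. There the neutrophil, monocyte and plasmacytoid dendritic sums lay below every control, at 37522 to 54680, 885 to 1155 and 54.9 to 78.1 CPM. Controls had 59453 to 81841, 1177 to 1626 and 88.3 to 91.0 CPM. The basophil and mast cell sum lay above, at 3343 to 4240 against 1795 to 2927 CPM. That sum rested mostly on the single gene *Prss34*, with a median of 2802 CPM over the libraries beside 2920 for the sum. It therefore describes mainly that gene. The part of these 4 sums in the hypertension values was not tested. The median log2 fold change of the 42 was 0.07 in atherosclerosis and -0.11 in hypertension, beside 0.01 and -0.01 for all genes.

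**Figure D2:**
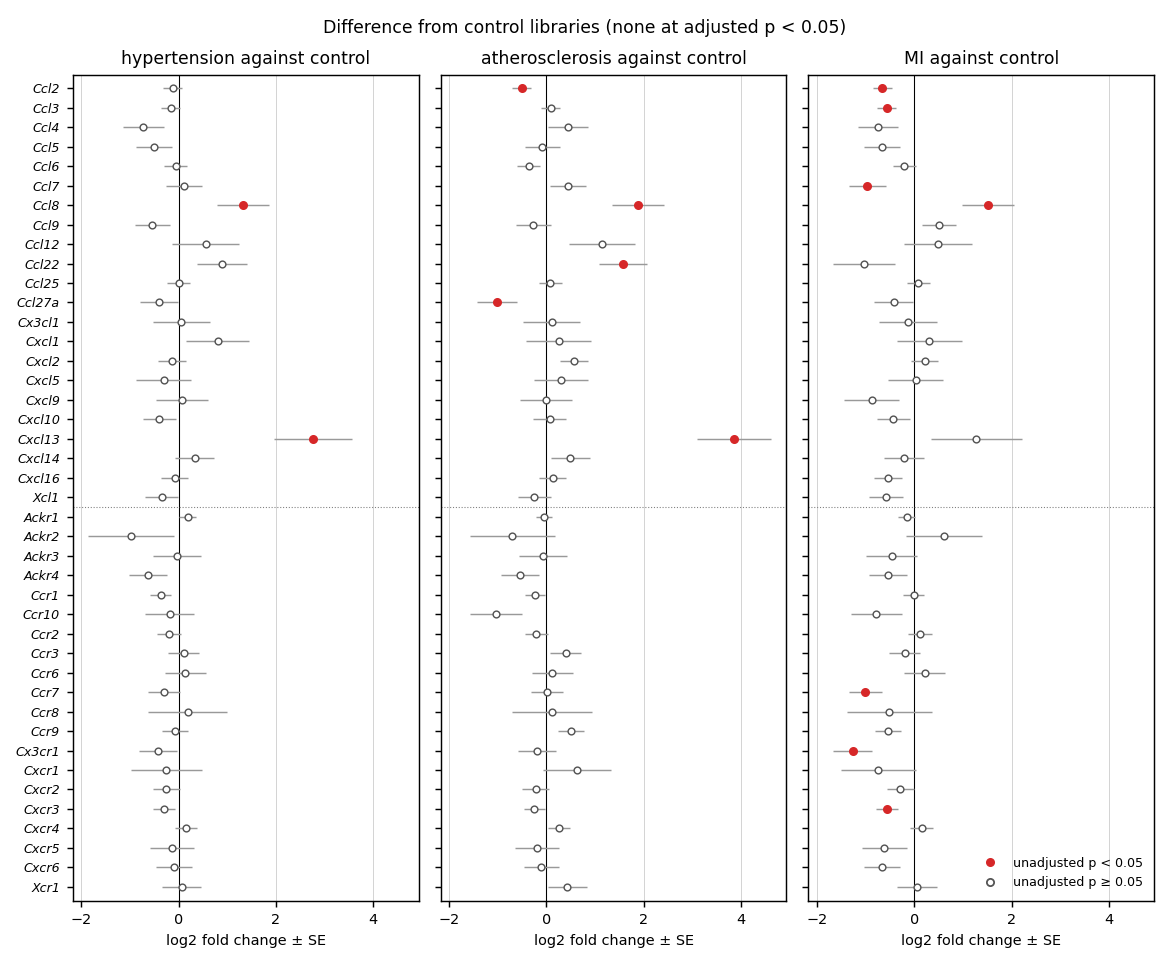
Log2 fold change against controls for the 42 tested genes in hypertension, atherosclerosis and MI, with bars of ± 1 SE, ligands above and receptors below the dotted line. Filled points have an unadjusted p under 0.05 (2, 5 and 7 genes), where 3.71%, 5.97% and 2.80% of all genes do. None has an adjusted p under 0.05. Points of the MI panel centre on a median of -0.43.

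Among the CXC ligands, *Cxcl13* had the largest fold differences from controls. It is the ligand of *Cxcr5* and attracts B cells. Its level in atherosclerosis was 1.65, 0.998 and 0.407 CPM, and in controls 0, 0.162 and 0.0388 CPM, so the groups did not overlap. In hypertension it was 0.681, 0.394 and 0.350 CPM, also above every control, and in MI 0.110, 0.212 and 0.174 CPM, overlapping them. Control libraries together held 4 counts and atherosclerosis libraries 62, a ratio per read of 16.3 with a 95% counting interval of 6.05 to 61.6. For hypertension, with 31 counts, the ratio was 7.44 with an interval of 2.63 to 29.0, and for MI, with 9 counts, 2.47 with an interval of 0.688 to 11. These intervals pool the reads of the 3 mice of a group and cover counting error only, not the spread between mice. *Cxcl13* entered the test only through libraries of hypertension and atherosclerosis, where it was higher, so lying above controls there was favoured. The fitted log2 fold change was 3.86 ± 0.76 (SE) in atherosclerosis, with an adjusted p of 0.0968. The likelihood-ratio test gave 0.000233 and DESeq2 0.0120, and over all alternatives the adjusted p ran from 3.74e-05 to 0.495. In hypertension the log2 fold change was 2.76 ± 0.80, with an adjusted p of 0.951. *Cxcl14*, an epithelial and stromal ligand, and *Cxcl16*, a membrane-bound ligand of *Cxcr6*, ranged over 1.35 to 4.90 and 5.39 to 14.4 CPM, and *Cxcl16* shares 18.3% of its exon bases with *Zmynd15* on the opposite strand.

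**Figure D3:**
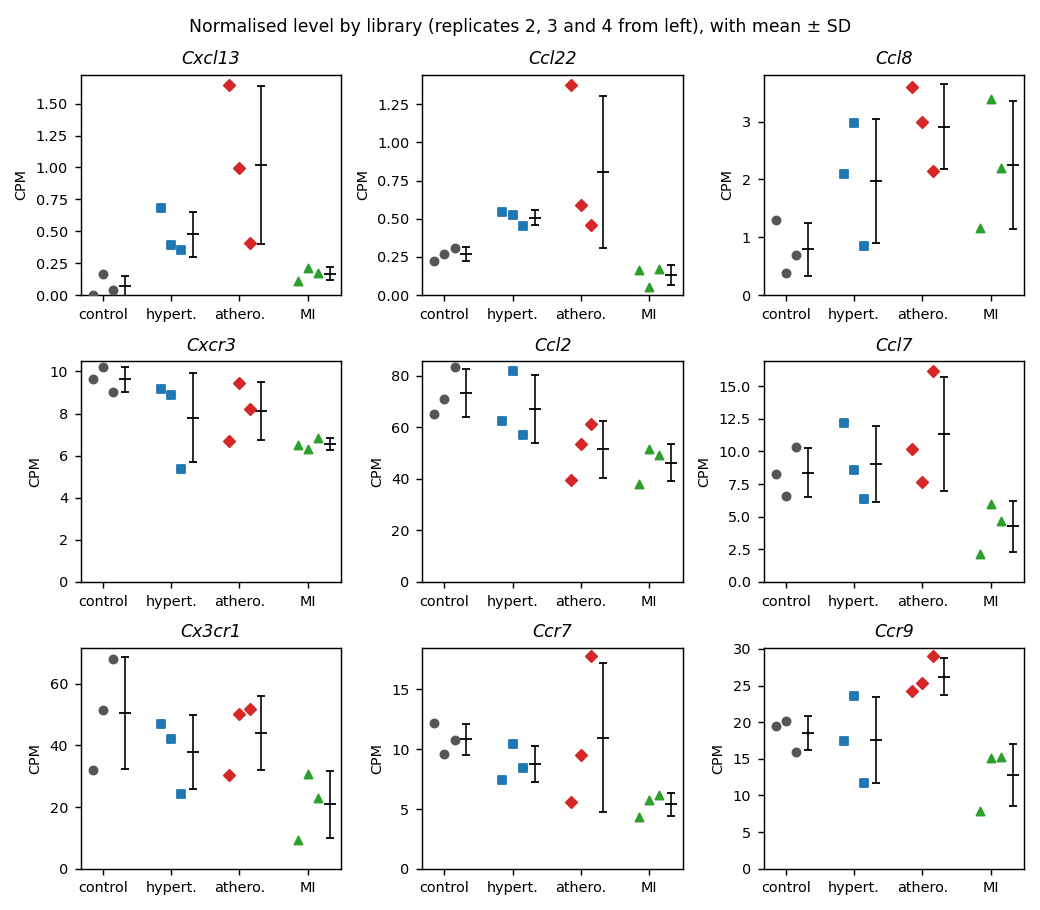
CPM of 9 genes in each of the 12 libraries, replicates 2, 3 and 4 from left within a group, with the mean and SD as a bar beside them. *Cxcl13*, *Ccl22*, *Ccl8* and *Ccr9* lie above every control in atherosclerosis, and *Ccl22*, *Cxcr3*, *Ccl2*, *Ccl7*, *Cx3cr1*, *Ccr7* and *Ccr9* lie below every control in MI.

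The monocyte-attracting CC ligands are encoded side by side with *Ccl2*, and their differences from controls did not share a sign. *Ccl8* was 3.60, 3.00 and 2.14 CPM in atherosclerosis against 1.29, 0.379 and 0.698 CPM in controls, with no overlap. In hypertension it was 2.09, 2.98 and 0.851 CPM and in MI 1.16, 3.39 and 2.20 CPM, and in both groups 1 library lay within the control range. The log2 fold changes were 1.89 ± 0.54 in atherosclerosis, 1.33 ± 0.54 in hypertension and 1.52 ± 0.54 in MI, with adjusted p of 0.413, 0.951 and 1.00. *Ccl2*, the principal monocyte chemoattractant, went the other way. It was 65.3, 71.2 and 83.4 CPM in controls, 39.6, 53.6 and 61.3 CPM in atherosclerosis and 38.1, 51.6 and 49.3 CPM in MI. Both disease groups lay below every control (atherosclerosis not when scaled by library totals), by log2 fold changes of -0.51 ± 0.20 (adjusted p 0.756) and -0.66 ± 0.20 (adjusted p 1.00), while hypertension, at 62.6, 82.1 and 56.9 CPM, overlapped the controls. *Ccl7*, the neighbour of *Ccl2*, was 2.15, 5.98 and 4.69 CPM in MI against 8.24, 6.55 and 10.3 CPM in controls. The MI libraries were the lower ones throughout, with a log2 fold change of -0.97 ± 0.38, whereas atherosclerosis at 10.2, 7.64 and 16.2 CPM and hypertension at 12.2, 8.58 and 6.36 CPM overlapped the controls. *Ccl12*, a further *Ccr2* ligand of the mouse, ranged over 0.0501 to 1.53 CPM.

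The ligands of *Ccr1* and related CC receptors were the most abundant group. *Ccl6* was 482, 613 and 565 CPM in controls, 468, 635 and 490 in hypertension, 408, 424 and 457 in atherosclerosis and 694, 349 and 397 in MI. The atherosclerosis libraries lay below every control, though not when scaled by library totals (log2 fold change -0.36 ± 0.24, adjusted p 0.873), and the MI libraries spanned the control range on both sides. *Ccl9*, the neighbour of *Ccl6*, showed the same library apart, with 156, 56.1 and 69.6 CPM in MI against 60.7, 75.5 and 61.9 CPM in controls. Its log2 fold change in MI was 0.51 ± 0.35 with all libraries and -0.07 without MI replicate 2. In that library the neutrophil and monocyte marker sums were also highest, and their part in these values was not tested.

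*Ccl3*, *Ccl4* and *Ccl5* encode inflammatory ligands made by activated leukocytes. *Ccl3* was 30.7, 47.2 and 48.6 CPM in controls and 29.5, 32.8 and 23.4 CPM in MI, with a log2 fold change of -0.56 ± 0.20 (adjusted p 1.00). The groups overlapped in 1 MI library, and the other groups, between 35.1 and 49.2 CPM, overlapped the controls. *Ccl4* was 30.4, 22.5 and 29.3 CPM in controls, 18.8, 19.2 and 11.9 in hypertension, 11.4, 41.7 and 59.2 in atherosclerosis and 14.7, 18.2 and 16.2 in MI. Hypertension and MI lay below every control, with log2 fold changes of -0.72 ± 0.41 and -0.75 ± 0.41, and the atherosclerosis libraries lay on both sides. *Ccl5* was 113, 74.8 and 80.1 CPM in controls, 71.9, 78.1 and 37.6 in hypertension, 51.9, 103 and 98 in atherosclerosis and 91.0, 38.5 and 40.1 in MI. All 3 disease groups overlapped the controls, each with at least 1 library below all of them.

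The neutrophil-attracting CXC ligands act on *Cxcr2*. *Cxcl2* was 36.2, 29.2 and 24.9 CPM in controls, 22.0, 25.7 and 34.7 in hypertension, 31.9, 41.6 and 59.5 in atherosclerosis and 47.2, 34.7 and 22.5 in MI. Every group overlapped the controls, and the largest log2 fold change was 0.56 ± 0.29 in atherosclerosis (adjusted p 0.860). *Cxcl1* ranged over 0.108 to 1.27 CPM and *Cxcl5* over 0.921 to 4.71 CPM, the latter with its highest and lowest values both in controls. The interferon-induced ligands of *Cxcr3*, *Cxcl9* and *Cxcl10*, ranged over 0.331 to 2.97 and 1.40 to 3.57 CPM, with log2 fold changes between -0.88 and 0.08 and all groups overlapping the controls.

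Of the ligands of *Ccr3*, *Ccr4* and *Ccr8*, *Ccl22* alone could be tested. It is a product of dendritic cells and macrophages that acts on *Ccr4*. *Ccl22* was 0.224, 0.271 and 0.310 CPM in controls, 0.545, 0.525 and 0.451 in hypertension, 1.38, 0.587 and 0.458 in atherosclerosis and 0.166, 0.0529 and 0.174 in MI. Both hypertension and atherosclerosis lay above every control and MI below, although the MI libraries held 7 counts in all. *Ccl22* entered the test only through libraries of hypertension and atherosclerosis, where it was higher, so lying above controls there was favoured. The log2 fold changes were 0.89 ± 0.51, 1.57 ± 0.50 and -1.03 ± 0.63, with adjusted p of 0.951, 0.564 and 1.00. Without atherosclerosis replicate 2 the log2 fold change in atherosclerosis was 0.93. *Ccl17*, the other *Ccr4* ligand, had 0 to 7 counts per library and *Ccl24*, an eosinophil chemoattractant, 0 to 20. The receptor *Ccr4* itself had at most 3 counts in every library.

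Among homeostatic and homing ligands, *Ccl27a*, a skin-homing ligand of *Ccr10*, was 0.534, 0.881 and 0.968 CPM in atherosclerosis and 2.52, 1.14 and 1.20 CPM in controls. These libraries did not overlap, with a log2 fold change of -1.02 ± 0.41 and an adjusted p of 0.760. *Ccl25*, the thymic and gut ligand of *Ccr9*, varied little, ranging over 4.99 to 9.65 CPM with log2 fold changes between 0.00 and 0.08. Exons of *Elavl1*, on the opposite strand, overlap 2.74% of the *Ccl25* exon bases. *Elavl1* had 57128 counts over all libraries and *Ccl25* 1855. The C ligand *Xcl1*, made by T and NK cells, was 1.40, 1.35 and 1.71 CPM in controls and 0.497, 1.32 and 1.16 CPM in MI, with a log2 fold change of -0.58 ± 0.35. *Cx3cl1*, the membrane-bound ligand of *Cx3cr1*, ranged over 0.174 to 1.85 CPM, with its lowest and highest values both in MI.

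The CC receptors of monocytes and granulocytes had ranges that overlapped the controls, apart from *Ccr1* in hypertension. *Ccr1* was 152, 181 and 153 CPM in controls and 117, 148 and 112 CPM in hypertension, where it lay below every control (log2 fold change -0.37 ± 0.21, adjusted p 0.951). Atherosclerosis at 116, 107 and 191 CPM and MI at 185, 148 and 149 CPM overlapped the controls. *Ccr2*, the receptor that releases monocytes, was 244, 389 and 388 CPM in controls, 273, 253 and 359 in hypertension, 399, 228 and 259 in atherosclerosis and 354, 323 and 433 in MI. *Ccr3*, the eosinophil receptor, was 11.9, 10.9 and 25 CPM in controls, 17.3, 18.7 and 15.5 in hypertension, 14.8, 27.6 and 20.7 in atherosclerosis and 10.7, 17.9 and 13.1 in MI. For both receptors every group overlapped the controls.

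*Ccr7*, the homing receptor of dendritic cells and naive T cells, was 4.31, 5.72 and 6.14 CPM in MI against 12.2, 9.58 and 10.7 CPM in controls. These libraries did not overlap, with a log2 fold change of -1.01 ± 0.34 and an adjusted p of 1.00. Atherosclerosis spread widely, at 5.6, 9.51 and 17.8 CPM, and hypertension was 7.4, 10.4 and 8.46 CPM. *Ccr9*, found on plasmacytoid dendritic cells and on gut-homing T cells, was 24.2, 25.4 and 29.0 CPM in atherosclerosis, 19.5, 20.1 and 15.9 in controls, 17.4, 23.5 and 11.7 in hypertension and 7.84, 15.1 and 15.3 in MI. Atherosclerosis lay above and MI below every control, with log2 fold changes of 0.50 ± 0.27 and -0.54 ± 0.27. The other CC receptors were low, *Ccr6*, *Ccr8* and *Ccr10* ranging over 0.534 to 1.33, 0 to 0.737 and 0.0890 to 1.01 CPM.

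Among CXC receptors, *Cxcr2*, the neutrophil receptor, was 128, 161 and 121 CPM in controls, 81.3, 140 and 123 in hypertension, 109, 96.1 and 149 in atherosclerosis and 67.6, 127 and 141 in MI. Every group overlapped the controls, and the lowest library was the MI library with the highest neutrophil marker sum. *Cxcr3*, a receptor of effector T cells, was 6.51, 6.30 and 6.84 CPM in MI and 9.64, 10.2 and 9.04 CPM in controls. Its MI libraries lay closely together and below every control, with a log2 fold change of -0.56 ± 0.22 and an adjusted p of 1.00. *Cxcr5*, the B cell receptor for *Cxcl13*, was 1.88, 2.17 and 2.14 CPM in MI against 2.58, 3.30 and 3.61 CPM in controls. In atherosclerosis, where *Cxcl13* lay above controls, *Cxcr5* was 1.20, 1.82 and 5.35 CPM and overlapped them. The 10 B cell marker genes summed to 223 to 494 CPM in MI and 522 to 767 CPM in controls. Across the 12 libraries *Cxcr5* and that sum had r of -0.103 (permutation p 0.757), and -0.420 with group means removed. *Cxcr4*, the retention receptor, ranged over 9.85 to 17.7 CPM, *Cxcr6* over 1.99 to 8.67 CPM and *Cxcr1* over 0 to 0.968 CPM.

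*Cx3cr1*, a receptor of non-classical monocytes and macrophages, had the largest fold difference below controls in MI. It was 9.33, 30.7 and 22.8 CPM in MI and 31.9, 51.3 and 68.0 CPM in controls. The groups did not overlap, but only a narrow gap separated the highest MI library from the lowest control. The log2 fold change was -1.27 ± 0.40, with an adjusted p of 1.00 that ran down to 5.13e-07 when no filter on low counts was applied. Hypertension at 47.0, 42.2 and 24.3 CPM and atherosclerosis at 30.3, 49.98 and 51.8 CPM overlapped the controls. The 7 monocyte marker genes summed to 1274 to 2183 CPM in MI and 1177 to 1626 CPM in controls. For the 10 macrophage genes the sums were 393 to 515 CPM in MI and 418 to 489 CPM in controls. Neither list separates non-classical monocytes, and the part of such cells in the *Cx3cr1* values was not tested. *Xcr1*, the receptor of cross-presenting dendritic cells, was 1.12, 1.52 and 1.05 CPM in controls, 1.59, 1.53 and 0.701 in hypertension, 1.96, 2.17 and 0.815 in atherosclerosis and 1.16, 1.38 and 1.27 in MI, with every group overlapping the controls.

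Of the atypical receptors, *Ackr1*, a chemokine-carrying protein of venular endothelium and red cell precursors, was 76.9, 65.6 and 84.7 CPM in controls and lay between 58.4 and 90.5 CPM elsewhere. Its log2 fold changes were 0.19 ± 0.17 in hypertension, -0.05 ± 0.17 in atherosclerosis and -0.16 ± 0.17 in MI. *Ackr4*, a scavenger of *Ccl19*, *Ccl21* and *Ccl25*, was 2.04, 1.85 and 0.985 CPM in MI and 2.30, 2.06 and 2.72 CPM in controls. Hypertension at 2.36, 1.23 and 1.00 CPM and atherosclerosis at 1.07, 1.70 and 2.09 CPM overlapped the controls, with log2 fold changes between -0.62 and -0.53 in the 3 groups. *Ackr3*, a scavenging receptor of endothelium, was 0.336, 0.217 and 0.776 CPM in controls, 0.318, 0.525 and 0.501 in hypertension, 0.445, 0.294 and 0.560 in atherosclerosis and 0.331, 0.423 and 0.232 in MI. All of these lay within the control range. *Ackr2*, a scavenger of inflammatory CC ligands, ranged over 0 to 0.607 CPM.

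Disease groups were also compared directly. Between MI and atherosclerosis, 10 of the 42 genes had an unadjusted p under 0.05, where 12.7% of all genes did, and 0 passed the adjusted threshold, where 0.269% of all genes did. *Ccl22* was lower in MI by -2.60 ± 0.57 on the log2 scale (adjusted p 0.0801), *Cxcl13* by -2.58 ± 0.67 (adjusted p 0.137), *Ccr9* by -1.04 ± 0.27 (adjusted p 0.145) and *Ccl7* by -1.41 ± 0.38 (adjusted p 0.161). Both *Ccl22* and *Cxcl13* had entered the test through groups other than MI in which they were higher. For *Ccl22*, *Cxcl13*, *Ccr9* and *Ccl7* all MI libraries lay below all atherosclerosis libraries, which held for 8 of the 42 genes and for 7.44% of all genes. The likelihood-ratio test called all 4. DESeq2 called *Ccl22*, *Ccr9* and *Ccl7*, and gave *Cxcl13* an adjusted p of 0.0549. Between atherosclerosis and hypertension, 2 genes had an unadjusted p under 0.05 (*Ccl4* and *Cxcl2*), where 5.94% of all genes did, and 0 passed the adjusted threshold, where 0.0625% did. Between MI and hypertension there were 4 (*Ccl2*, *Ccl7*, *Ccl9* and *Ccl22*), where 8.41% of all genes did, and 0 passed, where 0% did. The test of any difference among the 4 groups gave 10 genes an unadjusted p under 0.05, where 7.48% of all genes had one, and 0 an adjusted p, where 0.144% had one, with *Cxcl13* lowest at 0.156.

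Signalling and processing partners of the receptors were followed in 31 listed genes. Enough counts for a test were present in 29, and 0 passed the adjusted threshold in any comparison with controls. *Dpp4*, a protease that clips chemokines, was 11.98, 12.4 and 12.4 CPM in MI and 18.3, 16.8 and 19.2 CPM in controls. The MI libraries lay together below every control, with a log2 fold change of -0.56 ± 0.14, an unadjusted p of 0.00160 and an adjusted p of 1.00. *Arrb2*, an arrestin that ends receptor signalling, had a log2 fold change of 0.58 ± 0.21 in MI. *Rgs1*, which shortens G protein signals of chemokine receptors, was 19.3, 43.6 and 44.5 CPM in atherosclerosis and 24.4, 16.5 and 16.3 CPM in controls, with overlap and an adjusted p of 0.760. *Arrb1* was 105, 104 and 119 CPM in hypertension and 85.1, 81.5 and 92.2 CPM in controls, a log2 fold change of 0.34 ± 0.14. These 4 were the partners with an unadjusted p under 0.05, 1 of 29 in hypertension, 1 in atherosclerosis and 2 in MI, where 3.71%, 5.97% and 2.80% of all genes had one. The other partners with the smallest p were *Gng2* in hypertension (log2 fold change -0.28 ± 0.15), *Rgs18* and *Pik3r5* in atherosclerosis (-0.36 ± 0.18 and 0.73 ± 0.39) and *Dock2* in MI (-0.20 ± 0.15).

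Levels of 10 genes were compared across the 12 libraries with the summed markers of the cell type that each is known to mark, on a log2 scale after adding 0.1 CPM to the gene. *Ccr9* followed the 6 plasmacytoid dendritic cell genes, with Pearson's r of 0.925 (permutation p 3e-05, adjusted over the 10 pairs 0.0003) and Spearman's rho of 0.916 (permutation p 0.0001, adjusted 0.001). Without the 2 libraries farthest from the median marker sum r was 0.840, with group means removed it was 0.891, and leaving out any 1 library it stayed between 0.884 and 0.965. The marker sum was 97.0 to 130 CPM in atherosclerosis, 88.3 to 91.0 in controls, 54.9 to 78.1 in hypertension and 44.7 to 66.1 in MI, the same order of groups as *Ccr9*. *Siglech*, a surface receptor of plasmacytoid dendritic cells and the largest part of the sum, ranged over 25.9 to 88.2 CPM.

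**Figure D4:**
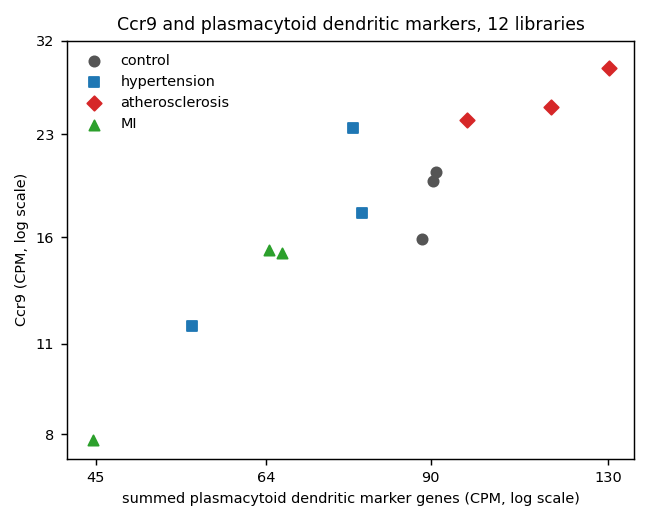
*Ccr9* against the summed level of 6 plasmacytoid dendritic marker genes in the 12 libraries, both in CPM on log axes, coloured and shaped by group. The 3 atherosclerosis libraries lie at the upper right (marker sum 97.0 to 130, *Ccr9* 24.2 to 29.0) and MI replicate 2 at the lower left (44.7 and 7.84).

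*Ackr3* followed the endothelial marker sum with r of 0.709 (permutation p 0.00972, adjusted 0.0486) and rho of 0.671 (adjusted 0.101). Without the 2 libraries farthest from the median marker sum r was 0.407, so the relation across all libraries rested on those, while with group means removed it was 0.836. The other 8 pairs had r between -0.390 and 0.312, none with an adjusted p under 0.05 by permutation. They were *Cxcr2* with neutrophil, *Ccr2* and *Cx3cr1* with monocyte, *Ccr3* with eosinophil, *Xcr1* with conventional dendritic, *Cxcr5* with B cell, *Xcl1* with T and NK cell and *Ackr1* with endothelial genes. Some of these sums rested mostly on a single gene. Median CPM was 478 for *Nkg7* beside 544 for the T and NK sum. It was 39.8 for *Wdfy4* beside 48.9 for the conventional dendritic sum, and 8802 for *Prg2* beside 10774 for the eosinophil sum. For such pairs r describes mainly that gene and says little about the cell type.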

How the data were processed

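Sorted bone marrow cells of 12 mice were profiled by polyA-selected, directional, single-end RNA sequencing. The deposited counts per gene are raw; the authors aligned with STAR 2.7.3a to GRCm38.p6 and counted with GeneCounts on an Ensembl annotation. Which strand column was taken is not given in the sources used here. Symbols, exon lengths and positions came from GENCODE M21 (55240 of 55421 IDs matched). In R 4.3.3, edgeR 4.0.16 was run with filterByExpr defaults, TMM scaling and 1 coefficient per group over 12 libraries (glmQLFit, glmQLFTest, two-sided), with Benjamini-Hochberg adjustment over 15999 genes and a threshold of 0.05. CPM are counts per library of 1000000, TMM-scaled. Scripts were checked on simulated data. With 3 mice against 3, an exact permutation test of a single gene cannot go below p = 0.1, so none is given. Correlations used 100000 permutations. Marker, partner and role lists and gene members were chosen with earlier results of these data known. Values per library are given for the 6 members of smallest p per comparison, the 12 highest per kilobase and the 10 genes of the marker pairs; other members are given by range, *Cxcr3* in addition after its values were seen. Alternatives were the likelihood-ratio test, DESeq2 1.42.0, RLE scaling, other count filters, only the groups compared, a replicate block and leaving out each library. A gene withheld from this account is not reported here and is in no count of members.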

Additional observations from a re-analysis of the deposited data

How the results depend on the processing

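None of the 42 genes was called in hypertension against controls under any alternative run. In atherosclerosis against controls, 1 gene was called by the likelihood-ratio test and 1 by DESeq2 (*Cxcl13* in both, with log2 fold changes of 3.85 and 3.97), and 2 without a filter on low counts (*Cxcl13* and *Ccl8*), where these settings called 0.506%, 0.506% and 1.20% of all genes. In MI against controls, 2 were called without that filter (*Cx3cr1* and *Ccr7*), with 0.361% of all genes, and 0 otherwise. For the test among 4 groups, the likelihood-ratio test called 2, DESeq2 1 and the unfiltered fit 9, with 1.46%, 1.51% and 2.75% of all genes. For MI against atherosclerosis they called 4, 3 and 9, with 1.71%, 1.88% and 2.19% of all genes, and for atherosclerosis against hypertension 0, 0 and 1, with 0.438%, 0.475% and 0.653%. The unfiltered fit also called 3 in MI against hypertension, with 1.17% of all genes. The cause was not tested. At an unadjusted p under 0.05, fits of only the 2 groups compared gave 4, 4 and 10 genes in hypertension, atherosclerosis and MI in place of 2, 5 and 7, and leaving out a library gave 1 to 3, 5 to 10 (10 without atherosclerosis replicate 4) and 5 to 8. Leaving out each library in turn gave 0 to 1 calls at an adjusted p among 4 groups, 0 to 1 for atherosclerosis against hypertension and 0 to 2 for MI against atherosclerosis, all of them without atherosclerosis replicate 2. Those fits called 0.226%, 0.220% and 0.569% of all genes. Of 236 values of named genes under alternatives, 1 took the other sign, *Ccl9* in MI, which on leaving out a library ranged on the log2 scale from -0.0712 (MI replicate 2 left out) to 0.77. Without control replicate 3 the log2 fold change of *Cxcl13* was 4.06 in hypertension and 5.15 in atherosclerosis.

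Chosen after seeing the data, scaling by library totals gave 3 genes below every control in atherosclerosis in place of 5 (*Ccl27a* and *Xcl1* in both, *Cxcr3* only here), and leaving out MI replicate 2 put 2 above every control in MI in place of 0. With group means removed, r of *Ccr2* with monocyte genes was -0.20. On leaving out a library, r ranged from -0.418 to 0.0764 for *Cxcr2*, -0.563 to 0.430 for *Cx3cr1*, -0.342 to 0.323 for *Xcr1*, -0.391 to 0.312 for *Cxcr5*, -0.114 to 0.165 for *Ackr1* and 0.581 to 0.843 for *Ackr3*, the lowest without control replicate 4. A replicate block called 0 of the 42 genes in every comparison, and over all genes 7 in atherosclerosis against controls, 22 in MI against atherosclerosis and 5 among 4 groups in place of 23, 43 and 23. Same-numbered libraries correlated, in deviations from their group means, between -0.336 and 0.342, and 4 of 12 libraries were closest to their own number, so the numbers were not taken as pairs. With 3 mice per group and *Cxcl13* and *Ccl22* at 0 to 37 counts, depth limits what can be said of the lowest genes.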
